A study of Callithrix jacchus with 4 samples.

Results

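The genes described here are 9 potassium channel genes with a link to FMRP, the RNA-binding protein made from FMR1: KCNC1, KCNC2 and KCNC4 of the Kv3 family, KCND2 and KCND3 of the Kv4 family, KCNMA1 and KCNMB4 of the BK channel, and KCNT1 (Slack) and KCNT2 (Slick). They were chosen by symbol, as channels whose protein or mRNA is known to bind FMRP and their close relatives. No cut on measured values was used, but earlier results of these data were known. All 9 have a row in the count table of 35205 genes, and all 9 passed the low-count filter that left 16956 genes to test. RNA-seq counted transcripts in 2 libraries from FMR1 mutants, made by CRISPR/Cas9, and 2 from wild-type animals, all of the common marmoset (Callithrix jacchus) on postnatal day 5. The design text names forebrain with cortex, striatum and hippocampus, while the label of each library gives only brain. The edited allele, the sex of the animals and whether each library comes from its own animal are not stated in the labels. The p-values therefore reflect how these libraries vary, which may be technical.

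FMRP represses the translation of many neuronal mRNAs, and it also binds some ion channel proteins directly. Kv3 channels open and close fast and let neurons, above all fast-spiking interneurons, fire at high rates, and in rodents FMRP binds the mRNA of Kcnc1. Kv4 channels carry the A-type current that damps dendritic excitation, and in rodents FMRP binds Kcnd2 mRNA. BK channels respond to calcium and voltage together and shape the action potential, and in mice FMRP acts on them through the auxiliary subunit encoded by Kcnmb4. Slack is opened by intracellular sodium, and in mice FMRP binds the C-terminal part of the protein. A bulk RNA measurement reports transcript levels only and does not reach translation or channel binding.

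The libraries held between 12331639 and 13455702 counts, so that depth was similar in both groups. Levels are given in CPM, counts scaled by library size and not by transcript length, so values of different genes are not ranked against each other. FMR1 itself was counted 1062 and 1603 times in mutant replicates 1 and 2, against 1144 and 966 times in wild-type replicates 1 and 2. Neuronal markers were present in every library, with a summed level of 6724 and 6767 CPM over 6 genes in mutant libraries and of 6521 and 6256 CPM in wild-type libraries. STMN2, a gene of growing axons, made up much of that sum (3059 and 2902 CPM in mutants against 2560 and 2232 CPM in wild-type), and 4 of the 6 had a log2 fold change, mutant over wild-type, below 0 (median -0.06). Cortical projection markers summed to 2391 and 2388 CPM in mutants against 2041 and 2301 CPM in wild-type, with 1 of 8 risen (NEUROD6, log2 fold change 0.41, adjusted p = 0.0469 by edgeR, and not past the threshold with any 1 library left out). Striatal markers summed to 352 and 433 CPM in mutants against 438 and 388 CPM in wild-type, and those of endothelial cells and pericytes to 251 and 263 CPM against 276 and 293 CPM. Hindbrain and cerebellar markers were low, at 9.24 and 9.20 CPM over 8 genes in mutants against 18.3 and 11.97 CPM in wild-type, with 2 tested and 1 fallen (CBLN1, log2 fold change -1.01, adjusted p = 0.0333 by edgeR, and -0.50 with an adjusted p of 0.557 without wild-type replicate 1). Wild-type replicate 1 stood apart in thalamic markers, with a summed level over 7 genes of 332.5 CPM, against 136 and 145 CPM in mutant replicates 1 and 2 and 139 CPM in wild-type replicate 2, though 0 of the 6 thalamic markers tested passed between groups by edgeR, with 2 at an unadjusted p under 0.05. Fewer cells of a type and less RNA per cell cannot be told apart in bulk tissue.

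None of the 9 channel genes passed the test between FMR1 mutant and wild-type libraries (edgeR quasi-likelihood, Benjamini-Hochberg adjusted p of at least 0.164), where 2.23% of all genes tested did (0.661% higher and 1.57% lower in mutants). At an unadjusted p under 0.05 there were 2, KCNC2 and KCNC4, with 13.4% of all genes past the same mark. DESeq2 and limma-voom also called 0 of the 9, each with 2 at an unadjusted p under 0.05. The log2 fold change, mutant over wild-type, was below 0 for 7 of the 9 genes, as it was for 50.7% of all genes, with a median of -0.23 against -0.004 over all genes. Both mutant libraries lay below both wild-type libraries for 5 of the 9 (KCNC1, KCNC2, KCNC4, KCNMA1 and KCNT2), where 21.8% of all genes did. The reverse order was seen for 0 of the 9, where 21.4% of all genes showed it, and 43.1% of all genes did not overlap in either direction. The 95% intervals of the 9 fold changes span 0.636 to 1.52 on a linear scale, so larger differences in either direction lie outside all of them. Counting error was small beside this, between 1.80% for the 3101 counts of KCNMA1 in wild-type replicate 1 and 6.77% for the 218 counts of KCNT1 in the same library.

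**Figure D1:**
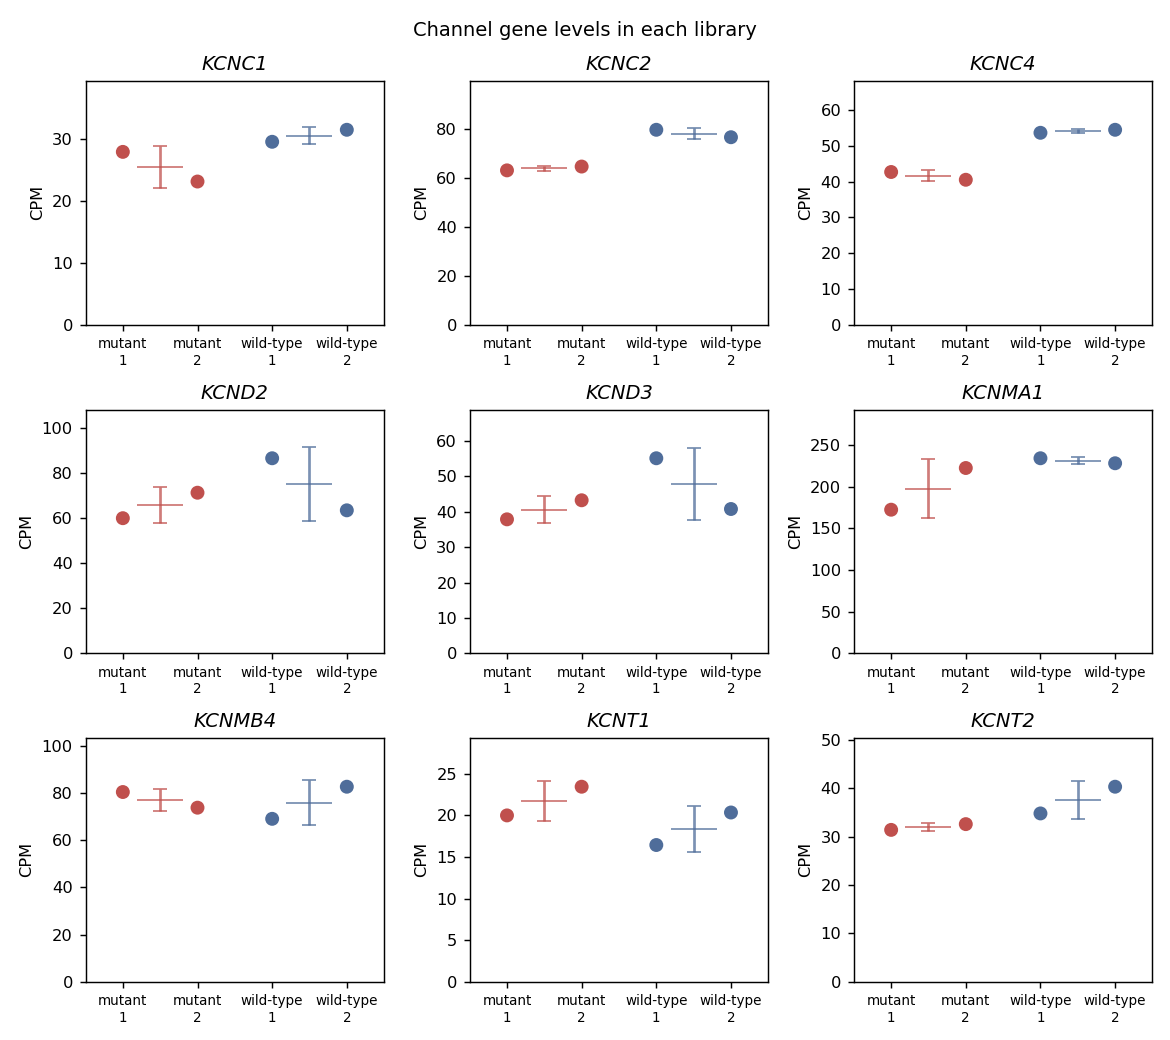
Level of each of the 9 channel genes in CPM (y axis from 0) in the 2 FMR1 mutant libraries (red) and the 2 wild-type libraries (blue), with the mean and SD of each group as a bar. KCNC2 and KCNC4 separate the groups by more than the distance between libraries of a group, while KCND2, KCND3, KCNMB4 and KCNT1 overlap.

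For all 3 Kv3 genes of the set, both mutant libraries lay below both wild-type libraries, and none passed. KCNC4, which encodes a fast-inactivating Kv3 subunit, had 42.7 and 40.5 CPM in mutant libraries, against 53.6 and 54.5 CPM in wild-type libraries. The groups were well apart, with the libraries of a group differing by at most 1.05-fold. Its log2 fold change of -0.38 (SE 0.14, 95% interval -0.65 to -0.10) had an adjusted p of 0.164, and 21.3% of all genes had a larger change in either direction. KCNC2, a Kv3 subunit of interneurons, had 63.1 and 64.7 CPM in mutant libraries, against 79.7 and 76.7 CPM in wild-type libraries. Again the 2 libraries of each group were close, at 1.02-fold in mutants and 1.04-fold in wild-type, and the groups did not overlap. The log2 fold change was -0.29 (SE 0.13, adjusted p = 0.292). KCNC1, whose mRNA is the Kv3 transcript bound by FMRP in rodents, had 27.9 and 23.1 CPM in mutant libraries, against 29.6 and 31.5 CPM in wild-type libraries. Mutant replicate 1 lay close to the wild-type range here, and the log2 fold change of -0.26 (SE 0.16, adjusted p = 0.512) shrank to -0.12 without mutant replicate 2.

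With 1 library left out at a time, KCNC4 stayed between -0.42 and -0.34 and KCNC2 between -0.32 and -0.26. Neither passed in any of those fits, with adjusted p between 0.336 and 0.391 for KCNC4 and between 0.386 and 0.636 for KCNC2.

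Markers of interneurons, which use Kv3 channels, were measured beside these values. Of 9 markers 2 fell and 0 rose, with 696.7 and 690.7 CPM summed over the list in mutant libraries, against 755 and 807 CPM in wild-type libraries. The calcium buffer PVALB, which marks fast-spiking interneurons, had 2.37 and 1.63 CPM in mutant libraries, against 5.05 and 6.51 CPM in wild-type libraries (-1.53, SE 0.34, adjusted p = 0.00974). GAD2, which makes GABA, fell as well (-0.46, SE 0.12, adjusted p = 0.0352), though not past the threshold without mutant replicate 1 (0.285), mutant replicate 2 (0.0574) or wild-type replicate 2 (0.249). LHX6 and SST, which mark interneurons of the medial ganglionic eminence, had log2 fold changes of 0.10 and -0.008 and did not pass. Over the whole list 8 of the 9 markers were below 0, LHX6 being the 1 above it. The list had a median of -0.16, against -0.004 over all genes. PVALB did not pass by DESeq2 (adjusted p = 0.0793) or without mutant replicate 2 (0.161), the highest of its 12 alternatives, which began at 0.00125. The part of interneuron RNA in the Kv3 values was not tested.

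The Kv4 pore genes of the set were highest in wild-type replicate 1, and neither passed. KCND2, which encodes the main dendritic A-type subunit of pyramidal neurons, had 59.9 and 71.2 CPM in mutant libraries, against 86.5 and 63.4 CPM in wild-type libraries. KCND3, its close relative, had 37.9 and 43.3 CPM in mutant libraries, against 55.1 and 40.8 CPM in wild-type libraries. In both genes wild-type replicate 1 was the highest library, at 1.33 and 1.36 times the mean of the other 3, and the groups overlapped. The log2 fold changes were -0.19 (SE 0.14, adjusted p = 0.622) for KCND2 and -0.24 (SE 0.15, adjusted p = 0.514) for KCND3. Without wild-type replicate 1 they were 0.05 for KCND2 and -0.01 for KCND3. The thalamic transcription factor TCF7L2 was at 9.82 times the mean of the other 3 libraries in wild-type replicate 1, with 9.01 and 8.98 CPM in mutants against 95.9 and 11.3 CPM in wild-type. Its part in the Kv4 values was not tested. Of the 36 pairs among the 9 genes, KCND2 and KCND3 had the most similar profile over the 4 libraries, with a root mean square difference of centred log2 CPM of 0.031. KCND3 counts per 100 KCND2 counts were 63.2 and 60.7 in mutant libraries and 63.7 and 64.3 in wild-type libraries. The ratio in mutants was 0.968 times that in wild-type and did not overlap between groups. Its exact permutation p was 0.333, the smallest that 2 against 2 libraries allow. Any ratio without overlap has this p, so the test could not call a difference. KCND1, a further Kv4 gene and no member of the set, had 13.4 and 13.1 CPM in mutant libraries, against 12.7 and 11.0 CPM in wild-type libraries (0.15, SE 0.20, adjusted p = 0.817).

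Auxiliary subunits of Kv4 held changes that passed. Of the 6 genes that encode KChIP and DPP-like subunits, 2 fell, 0 rose and 4 did not pass, with a median of -0.18. KCNIP3, which encodes the calcium sensor KChIP3, also known as DREAM and calsenilin, had 13.3 and 14.8 CPM in mutant libraries, against 30.9 and 32.8 CPM in wild-type libraries. Both mutant libraries were far below both wild-type libraries, and libraries of a group differed little. The log2 fold change was -1.18 (SE 0.17, 95% interval -1.52 to -0.84, adjusted p = 3.10e-05), and it passed in all 12 alternatives run (adjusted p from 6.65e-09 to 0.0017), with values between -1.26 and -1.10 when any 1 library was left out. Without wild-type replicate 1, the library that stands apart, it was -1.22. KCNIP2, which encodes KChIP2, had 62.5 and 61.8 CPM in mutant libraries, against 85.8 and 85.0 CPM in wild-type libraries. Here too the libraries of a group nearly coincided (-0.46, SE 0.13, adjusted p = 0.0456). The call for KCNIP2 was close to the threshold and was lost by DESeq2 (adjusted p = 0.0559), by limma-voom (0.0530) and with any 1 library left out (0.0978 to 0.170), while its value stayed between -0.47 and -0.45.

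The other 4 auxiliary genes did not pass. KCNIP1 was at -0.14 (SE 0.14), KCNIP4 at -0.11 (SE 0.13), DPP6 at -0.21 (SE 0.12) and DPP10 at 0.05 (SE 0.12). DPP6 and DPP10 are single-pass membrane proteins that speed Kv4 gating and move the channels to the surface. Markers of mature oligodendrocytes were lower in the mutant libraries alongside the KChIP genes, with 8 of 8 fallen and a summed level of 958 and 893 CPM in mutants against 2468 and 2437 CPM in wild-type. Astrocyte markers summed to 3371 and 3666 CPM in mutants against 4685 and 4518 CPM in wild-type. Of these, 7 of 7 were below 0 (median -0.24) and 1 fell (SLC1A2, a glutamate transporter gene). Microglial markers summed to 120.5 and 83.3 CPM in mutants against 157 and 167 CPM in wild-type, with 7 of 7 below 0 and 3 fallen, CSF1R, CX3CR1 and LAPTM5, none of which passed without mutant replicate 2. The part of glial RNA in the KCNIP3 and KCNIP2 values was not tested.

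**Figure D2:**
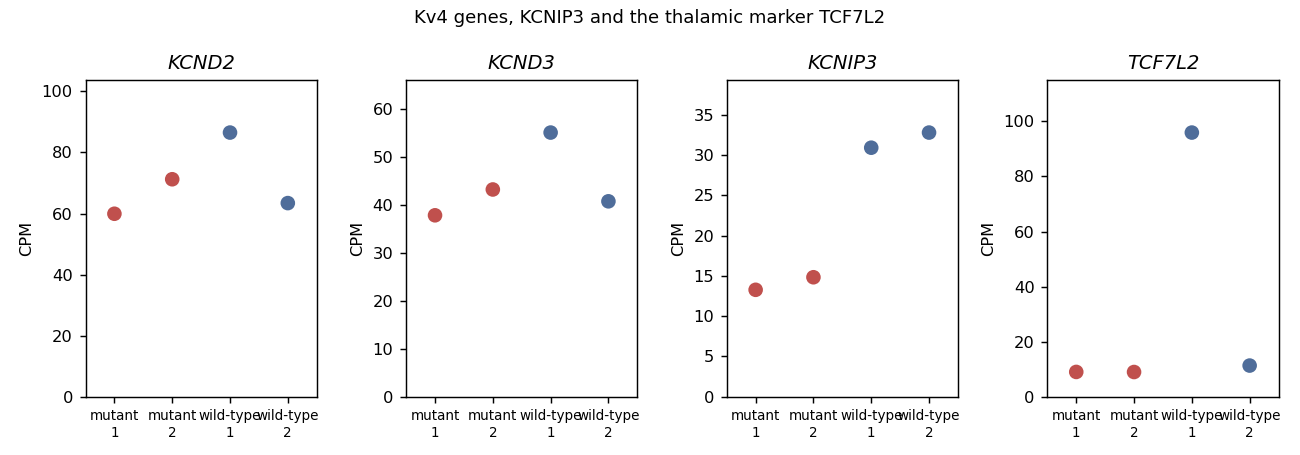
Level in CPM (y axis from 0) of KCND2, KCND3, KCNIP3 and the thalamic marker TCF7L2 in mutant libraries (red) and wild-type libraries (blue). KCND2, KCND3 and TCF7L2 are highest in wild-type replicate 1, while KCNIP3 is at 13.3 and 14.8 CPM in mutants and at 30.9 and 32.8 CPM in both wild-type libraries.

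Neither BK channel gene passed. KCNMA1, which encodes the pore, had 172 and 222 CPM in mutant libraries, against 234 and 228 CPM in wild-type libraries. Mutant replicate 1 alone was low, and mutant replicate 2 was at 1.05 times the mean of the other 3 libraries. The log2 fold change of -0.23 (SE 0.12, adjusted p = 0.434) shrank to -0.06 when mutant replicate 1 was left out and was -0.42 when mutant replicate 2 was (adjusted p = 0.128). KCNMB4, the neuronal subunit through which FMRP acts on BK in mice, had 80.5 and 73.8 CPM in mutant libraries, against 69.1 and 82.7 CPM in wild-type libraries. The groups overlapped, and the log2 fold change of 0.02 (SE 0.13, adjusted p = 0.969) had a 95% interval of 0.846 to 1.22 in linear fold. KCNMB4 counts per 100 KCNMA1 counts were 46.7 and 33.2 in mutant libraries, against 29.5 and 36.3 in wild-type libraries (exact permutation p = 0.667, two-sided).

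Of the 7 other BK auxiliary genes listed, 5 could be tested and 0 passed by edgeR, DESeq2 or limma-voom, with 1 at an unadjusted p under 0.05. That gene was LRRC38, a leucine-rich subunit, with 2.14 and 2.30 CPM in mutants against 3.62 and 4.07 CPM in wild-type (-0.79, SE 0.36, adjusted p = 0.329). Among the 8 pore genes of voltage-gated calcium channels, some of which supply the calcium that opens BK, 0 passed by the same 3 tools and 2 were past an unadjusted p of 0.05, with a median of -0.13. The smallest p was that of the T-type gene CACNA1I, with 78.1 and 94.6 CPM in mutants against 90.6 and 121.7 CPM in wild-type (-0.30, SE 0.14, adjusted p = 0.351). The groups overlapped for CACNA1I. Its log2 fold change was -0.495 without wild-type replicate 1 and -0.067 without wild-type replicate 2.

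**Figure D3:**
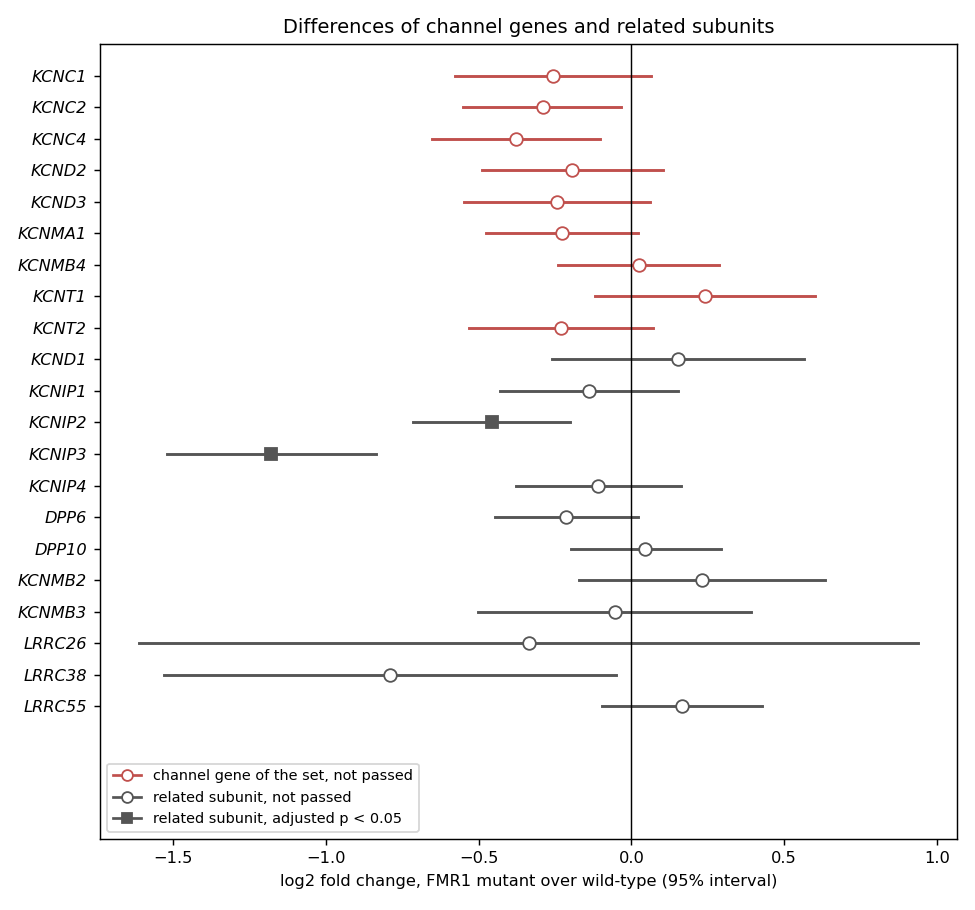
Log2 fold change, FMR1 mutant over wild-type, with its 95% interval, for the 9 channel genes (red) and for KCND1 and the tested auxiliary genes of the Kv4 and BK channels (grey), with filled squares for an adjusted p under 0.05. KCNIP3 at -1.18 and KCNIP2 at -0.46 are the filled squares, and the 9 channel genes lie between -0.38 and 0.24.

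Slack and Slick lay on opposite sides of 0. KCNT1, the Slack gene, had 20.0 and 23.5 CPM in mutant libraries, against 16.4 and 20.4 CPM in wild-type libraries. The groups overlapped narrowly, with mutant replicate 1 just below wild-type replicate 2. The log2 fold change was 0.24 (SE 0.18, adjusted p = 0.613), with a range of 0.09 to 0.40 when any 1 library was left out. KCNT2, the Slick gene, whose product is a related sodium-activated channel, had 31.4 and 32.6 CPM in mutant libraries, against 34.8 and 40.3 CPM in wild-type libraries. Both mutant libraries were lower, by a log2 fold change of -0.23 (SE 0.15, adjusted p = 0.540) that was -0.12 without wild-type replicate 2. KCNT1 counts per 100 KCNT2 counts were 63.7 and 72.0 in mutant libraries, against 47.3 and 50.5 in wild-type libraries. This ratio was 1.39 times as high in mutants and did not overlap between groups. Its exact permutation p of 0.333 is the smallest that 2 against 2 libraries allow. Any ratio without overlap has this p, so the test could not call a difference. In CPM of single genes, 43.1% of all genes tested did not overlap between groups in either direction.

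**Figure D4:**
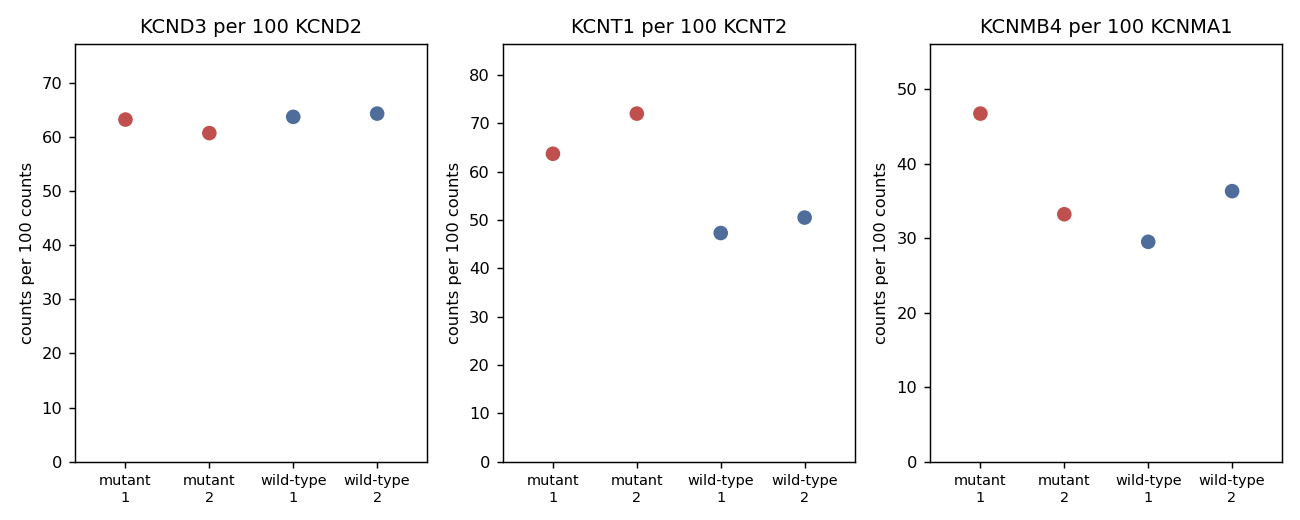
KCND3 counts per 100 KCND2 counts, KCNT1 counts per 100 KCNT2 counts and KCNMB4 counts per 100 KCNMA1 counts in each library (y axes from 0), with mutant libraries in red and wild-type libraries in blue. The KCNT1 ratio was 63.7 and 72.0 in mutant libraries, above the 47.3 and 50.5 of wild-type libraries, while the KCNMB4 ratio overlapped. The KCND3 ratio stayed between 60.7 and 64.3 and did not overlap between groups either, being slightly lower in mutants.

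**Figure D5:**
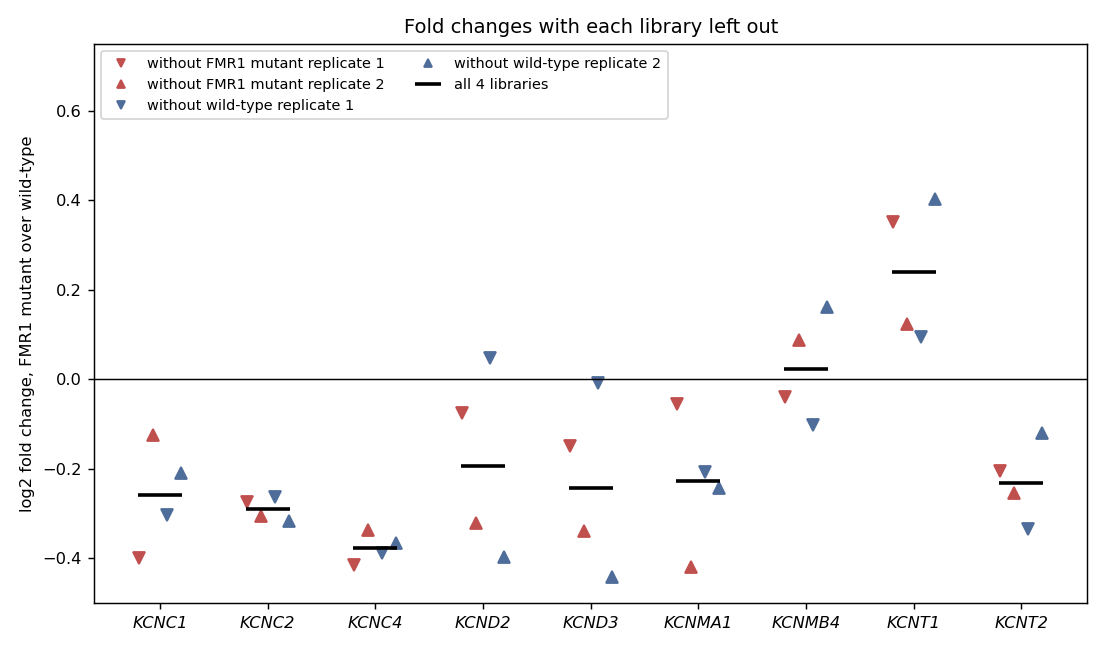
Log2 fold change of each channel gene with all 4 libraries (black bar) and with each library left out in turn (red triangles, a mutant library left out, and blue triangles, a wild-type library left out). KCNC4 and KCNC2 hardly move, while KCND2, KCND3 and KCNMA1 reach from about 0.05, -0.01 and -0.06 down to -0.40, -0.44 and -0.42.

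Over the 9 genes, mutant replicate 1 was the lowest library for 5, mutant replicate 2 for 2 and wild-type replicate 1 for 2. Each wild-type library was the highest for 4, and mutant replicate 2 for 1. With mutant replicate 1 left out the median log2 fold change of the 9 was -0.15, and with mutant replicate 2 left out it was -0.31. Leaving out wild-type replicate 1 or 2 gave -0.21 or -0.24. In those 4 fits between 7 and 8 of the 9 were below 0.

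Other potassium channels gave the setting for these values. Of 31 listed voltage-gated potassium channel genes outside the Kv3 and Kv4 families, 27 could be tested, and 1 fell and 0 rose. It was KCNH5, an ether-a-go-go channel, with 26.9 and 29.7 CPM in mutant libraries against 43.2 and 40.1 CPM in wild-type libraries (-0.56, SE 0.15, adjusted p = 0.0334). The list had a median of -0.19, and 22 of its 27 tested genes were below 0. KCNH5 did not pass by DESeq2 (adjusted p = 0.0897) or in 3 of the 4 fits with 1 library left out, the exception being the fit without wild-type replicate 2 (0.0372). Over its 12 alternatives the adjusted p ran from 0.0156 to 0.285. Of 20 inward rectifier and two-pore channel genes, 1 fell and 0 rose, with a median of -0.13. It was KCNJ12, the gene of the strong inward rectifier Kir2.2, with 7.56 and 8.90 CPM in mutants against 16.2 and 12.2 CPM in wild-type (-0.79, SE 0.22, adjusted p = 0.0481), and without wild-type replicate 1 it was at -0.57 (adjusted p = 0.364). KCNJ12 was not called by DESeq2 (0.217) or limma-voom (0.0686), and its adjusted p ran from 0.00567 to 0.396 over 12 alternatives. Among 3 tested SK channel genes 0 passed by edgeR, DESeq2 or limma-voom and 0 had an unadjusted p under 0.05. KCNN1 had the smallest p of them (-0.25, SE 0.12, adjusted p = 0.391). FMR1 and its paralogs FXR1 and FXR2 did not pass by any of these 3 tools, 0 of the 3 had an unadjusted p under 0.05, and FMR1 was nearest, at 0.28 (SE 0.15, adjusted p = 0.445), or -0.02 without mutant replicate 2.

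Profiles over the 4 libraries were compared with 60 other potassium channel and auxiliary genes of at least 1 CPM, by the root mean square difference of centred log2 CPM. For KCNC2 the nearest were KCNQ5, an M-type channel gene (0.056), and DPP6 (0.067). For KCNMA1 they were the Kv1 genes KCNA3 (0.033) and KCNA4 (0.078), which share its low value in mutant replicate 1. For KCNT2 they were the silent subunit gene KCNS1 (0.021) and KCNQ5 (0.046). For KCND2 they were KCNH8 (0.095) and KCNMB3 (0.102), both farther from it than KCND3. The 4 points share their libraries and scaling, so these distances are descriptions.

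In the current RefSeq annotation of the marmoset, used here for names and neighbours only, KCNC1, KCNC2 and KCNMB4 overlap no other gene. KCNC4 overlaps LOC118143081, which has 162 counts over the 4 libraries, and KCND3 overlaps LOC128928247, which has 69. KCNIP3 overlaps the noncoding LOC128929550, which has 130 counts. No source used here states the strand setting of the counting, so reads in such overlaps could not be told apart.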

How the data were processed

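The deposited table holds raw, unscaled counts of 35205 genes in 4 libraries, as whole numbers. Per the labels' protocols, poly(A) RNA was made into directional libraries. Per the submitters' processing notes, Trimmomatic 0.38 and STAR 2.7.10a were used. The counting tool, genome build and strand setting: not given in the sources used here.

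From these counts edgeR 4.0.16 (in R 4.3.3) gave every test reported without another name, with filterByExpr (minimum count 10, 16956 genes), TMM scaling and the quasi-likelihood test (robust = TRUE), with p-values adjusted over the whole table by Benjamini-Hochberg, a threshold of 0.05 and 2 residual degrees of freedom. SE is the log2 fold change divided by the square root of F. CPM use TMM-scaled library sizes, and means are over 2 libraries. The test was first checked on simulated data. Libraries of a group differed by more than sampling noise (chi-square per degree of freedom 6.90 in mutants and 7.28 in wild-type), so neither pair was treated as a single library deposited again. Alternatives were RLE and upper quartile scaling, DESeq2 1.42.0 on all rows, limma-voom (limma 3.58.1), robust = FALSE, no filter, a mean of at least 1 CPM, a replicate block, an adjusted p of 0.1, and each library left out with the same genes.

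The 9 genes and all lists were chosen with earlier results of these data known. All 9 are named, of each channel list up to 4 genes past the threshold, or otherwise the gene with the smallest p, and 2 genes of like profile for 1 gene of each family. Marker lists are given by their sums, and the single markers named, KCND1 and the remaining Kv4 auxiliary genes were chosen after their values were seen. The alternatives were run for the 9 genes, the channel and auxiliary genes given with a test, FMR1, and the markers given with a fold change or called as changed by name, with the oligodendrocyte markers given as a list.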

Additional observations from a re-analysis of the deposited data

How the results depend on the processing

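In all 12 alternatives 0 of the 9 channel genes passed, and scaling, test and filter left each value within 0.012 of the one reported, on the log2 scale. Directions turned only where 1 library was left out: KCND2 ran from -0.398 to 0.048 (above 0 without wild-type replicate 1), KCNMB4 from -0.101 to 0.161 (below 0 without wild-type replicate 1, and at -0.04 without mutant replicate 1), and FMR1 from -0.022 to 0.528 (below 0 without mutant replicate 2). DPP10 ran from -0.01 (without wild-type replicate 1) to 0.107, and SST from -0.156 to 0.128 (above 0 without mutant replicate 2 and, at 0.059, without wild-type replicate 2). TCF7L2 passed with robust = FALSE (adjusted p = 0.00188) and without wild-type replicate 2 (4.97e-69). NEUROD6 and CBLN1 did not pass by limma-voom (0.0526 and 0.0672), nor did CBLN1 (0.15) and CX3CR1 (0.0702) by DESeq2. Over all genes, 112 rose and 266 fell. Without a low-count filter it was 194 and 439, at an adjusted p of 0.1 it was 216 and 408, and DESeq2 called 166 lower. With 1 library left out, between 45 and 173 rose and between 118 and 389 fell. Of the Kv4 auxiliary genes, 1 in place of 2 fell by DESeq2, limma-voom, robust = FALSE and with any 1 library left out, in each case KCNIP3. Of other voltage-gated channels 0 fell by DESeq2, and 0 to 2 with 1 library left out. Of inward rectifier and two-pore channels, 0 fell by upper quartile scaling, DESeq2, limma-voom and robust = FALSE, 3 without a filter and 2 at a mean of at least 1 CPM, and 0 to 1 with 1 library left out. The replicate numbers of the titles pair nothing known: deviations of same-numbered libraries correlated at 0.0217 across genes. With the replicate block 153 genes rose and 340 fell, 0 of the 9 channel genes passed, and 2 inward rectifier and two-pore genes fell. Where a library is left out, its partner is assumed to vary like the other group, and the cause of the changes was not tested. With 2 libraries a group, the intervals span about 0.25 to 0.36 to either side of a channel gene's log2 fold change, which limits what could be called.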
